A study of Mus musculus with 55 samples.

Results

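The 10 genes described here encode products of neutrophils, the short-lived phagocytes that leave the bone marrow and patrol blood and liver sinusoids. They are Mpo, Elane, Ngp, Camp, Ltf, S100a8, S100a9, Retnlg, Csf3r and Ly6g, and they were taken by symbol from the 24478 symbols of the deposited expression table, where all 10 were found. Where a symbol had several rows, that of the highest overall mean level represents it. S100a9 has 2 rows and Csf3r has 3, and each of the others has 1.

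The study measured RNA in 10 populations sorted from the liver of C57B/L6 mice. Normal liver was set against liver after partial hepatectomy (PH), the surgical removal of part of the liver, after which the remaining cells grow back. The normal groups were clonal biliary epithelial cells (cBEC), biliary epithelial cells (BEC) and hepatocytes (HC) with 4 libraries each, sinusoidal endothelial cells (LSEC) with 3, and non progenitor ducts (NPD), endothelial cells (EC), blood cells, Thy1 cells, Kupffer cells (KC, the resident liver macrophages) and stellate cells (HSC) with 2 each. The PH groups were HC with 4 libraries, LSEC with 5, EC, KC and HSC with 3 each, and cBEC, BEC, NPD, blood and Thy1 with 2 each. The labels name no genetic change, age, sorting antibody or time after surgery, and they do not say whether libraries came from separate animals. The p-values below measure only the spread between these libraries, which may be technical.

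Neutrophil granules are filled in sequence as the cell matures in the bone marrow. Azurophil granule proteins such as Mpo (myeloperoxidase) and Elane (neutrophil elastase) are transcribed earliest, in promyelocytes. The specific granule genes Ngp (neutrophilic granule protein), Camp (cathelicidin) and Ltf (lactotransferrin) follow in myelocytes and metamyelocytes, and mature circulating neutrophils carry little mRNA of either set. S100a8 and S100a9 encode the calgranulins, 2 calcium-binding proteins that pair as calprotectin in the cytosol of neutrophils and monocytes. Retnlg (resistin-like gamma), Csf3r (the receptor of G-CSF) and Ly6g (the antigen of the Gr-1 and 1A8 antibodies) continue to be expressed in mature neutrophils, and Csf3r is also known from monocytes and macrophages.

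The table lists these genes as RefSeq transcripts on mm9. On chromosome 9, Camp (NM_009921) runs from 109749891 to 109751970 on the minus strand, Ngp (NM_008694) from 110322312 to 110325516 and Ltf (NM_008522) from 110921796 to 110945270, both on the plus strand. S100a8 (NM_013650, 90472993 to 90473956, plus strand) and S100a9 (NM_009114, 90496552 to 90499643, minus strand) are neighbours on chromosome 3. The rows of the other 5 are Mpo (NM_010824, chromosome 11, 87607286 to 87617914), Elane (NM_015779, chromosome 10, 79349057 to 79350961), Retnlg (NM_181596, chromosome 16, 48872721 to 48874611), Csf3r (NM_007782, chromosome 4, 125701903 to 125722219) and Ly6g (NM_001310438, chromosome 15, 74985691 to 74989558), all on the plus strand.

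Since Ngp and Ltf moved together after PH and S100a8 and S100a9 moved far less, the 250 bases before the transcription start of these 4 genes are shown, 5′ to 3′ on the strand of the gene. They come from RefSeq on GRCm38.p6, a later build than that of the table. C/EBP factors, among them C/EBP epsilon of specific granule formation, bind sites of the form TTNNGNAA (TTNCNNAA on the other strand), and capitals mark each match on either strand.
Ngp, chr9:110419558-110419807, plus strand: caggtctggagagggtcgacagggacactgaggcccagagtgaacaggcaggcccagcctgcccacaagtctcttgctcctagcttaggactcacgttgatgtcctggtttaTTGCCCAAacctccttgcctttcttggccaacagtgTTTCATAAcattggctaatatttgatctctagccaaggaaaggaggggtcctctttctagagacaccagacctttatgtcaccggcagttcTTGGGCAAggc
Ltf, chr9:111019042-111019291, plus strand: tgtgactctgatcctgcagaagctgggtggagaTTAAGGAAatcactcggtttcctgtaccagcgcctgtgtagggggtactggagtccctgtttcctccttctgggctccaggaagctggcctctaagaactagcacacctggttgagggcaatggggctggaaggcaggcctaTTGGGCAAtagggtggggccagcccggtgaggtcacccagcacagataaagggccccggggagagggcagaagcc
S100a8, chr3:90668821-90669070, plus strand: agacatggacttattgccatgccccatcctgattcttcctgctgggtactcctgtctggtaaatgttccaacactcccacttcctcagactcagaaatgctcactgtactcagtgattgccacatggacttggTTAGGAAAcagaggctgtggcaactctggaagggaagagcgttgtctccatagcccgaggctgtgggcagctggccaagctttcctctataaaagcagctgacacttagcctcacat
S100a9, chr3:90695722-90695971, minus strand: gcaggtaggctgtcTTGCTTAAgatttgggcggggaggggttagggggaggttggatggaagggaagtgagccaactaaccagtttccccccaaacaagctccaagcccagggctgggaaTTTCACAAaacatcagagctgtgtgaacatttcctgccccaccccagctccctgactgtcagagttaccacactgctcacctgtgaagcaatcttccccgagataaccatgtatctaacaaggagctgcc
Ngp held 3 matches, Ltf 2, S100a8 1 and S100a9 2, so the letters occurred in genes with large and with small changes. All 10 members matched the promoter table by symbol. With 50 bases after the start included, 6 of the 10 members held TTNNGNAA, against 40.7% of all 32851 promoters of that length (300 bases). Camp, Mpo, Elane and Csf3r held none. On log2(FPKM + 1) the fall of Camp in blood lay between those of Ngp and Ltf. Its PH mean was 0.238% of its normal mean, against 0.473% for Ngp and 0.438% for Ltf. For Retnlg, which held 1 match, the first 30 transcribed bases were not found near the start of any transcript searched. GAGGAA, a PU.1 core searched on both strands, was in 6 of the 10 as well, against 28.3% of all promoters. The 2 motifs were counted separately, and their matches can overlap in the same bases. A match is a description of the letters only.

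Levels are given in FPKM (fragments per kilobase of transcript, scaled to library size), which allow levels to be compared between genes, and changes are differences of log2(FPKM + 1). The FPKM of a library summed to between 624726 and 1203200. The number of reads behind a value is unknown, so values well under 1 FPKM may rest on single reads. In hepatocytes no member exceeded 1.32 FPKM in any library.

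In normal liver each of the 10 genes was higher in both blood libraries than in any of the 25 other normal libraries. The share of all genes for which this held was not computed, so it is a description only. The margin differed: the blood mean was 1.99 times the highest other library for Csf3r (from KC) and 2.54 times for Ltf (from cBEC). The calgranulins led. S100a8 was at 1909 and 1568 FPKM in the 2 normal blood libraries and at 18.7 FPKM in the highest other library, from KC. S100a9 was at 1355 and 1182 FPKM, with 31.4 FPKM in that same KC library. For the calgranulins the blood libraries thus stood clear of every other sort.

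Retnlg, a secreted protein of mature neutrophils, came next at 435 and 546 FPKM, and no other normal library exceeded 4.08 FPKM. The specific granule gene Ngp stood at 213 and 277 FPKM, Camp at 74.4 and 76.5 FPKM and Ltf at 61.3 and 77.7 FPKM. Csf3r was at 70.1 and 66.0 FPKM. The azurophil granule genes were lower, with Mpo at 21.1 and 32.5 FPKM and Elane at 6.80 and 8.98 FPKM, and Ly6g was lowest, at 6.17 and 5.92 FPKM. Genes of the azurophil, specific granule and mature sets were all detected in both libraries of this sort.

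**Figure D1:**
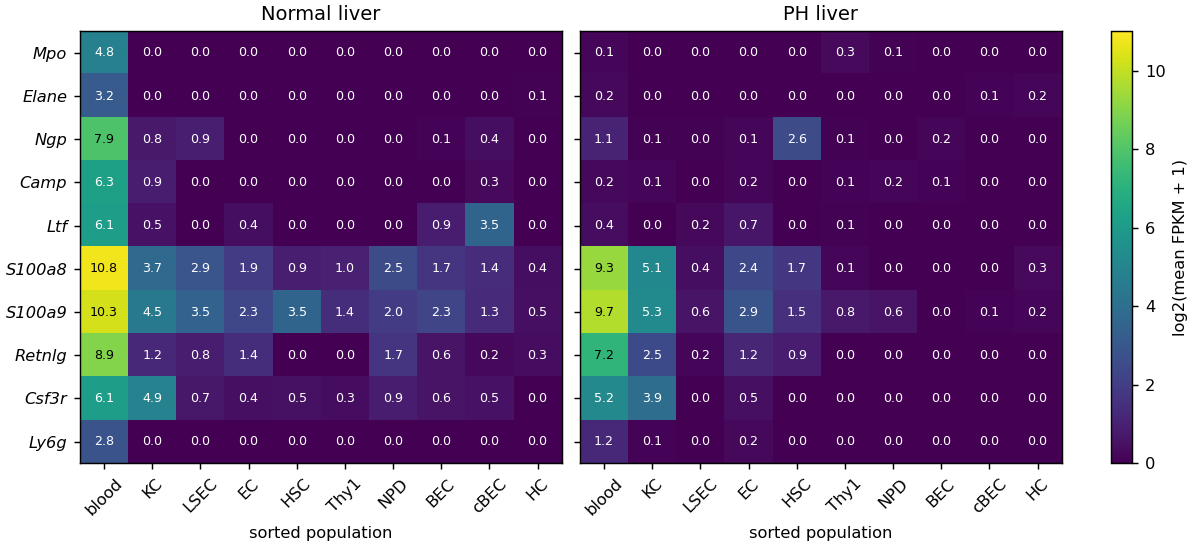
Mean level of each member in each sorted population, as log2(mean FPKM + 1), in normal liver (left) and after PH (right), with the value printed in each cell and colour from 0 to 11. The blood column is filled for all 10 genes in normal liver, whereas after PH its upper 5 rows lie at 1.1 or less, S100a8, S100a9, Retnlg and Csf3r at 5.2 or more, and Ly6g at 1.2.

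After PH the blood sort lost the transcripts of Mpo, Elane, Ngp, Camp and Ltf almost entirely. It kept much of the calgranulin, Retnlg and Csf3r signal. Granule genes outside the members, given below, were uneven, with Lcn2 listed at 0 after PH and Mmp9 at 38.1 and 31.6 FPKM. Of the 10 members, 9 fell and 0 rose in limma (adjusted p under 0.05), and the median change of the 10 was -2.35. Camp, Ltf, Mpo and Elane were under 1 FPKM in both PH libraries. They passed the filter on low values through normal blood alone, so they could only fall, and their calls are a description. In this comparison 64% of all genes tested changed, 39.7% of all genes tested fell and the median change of all genes was -0.31. In 9 of the 10 members both PH libraries also lay below both normal ones, as they did for 52% of all genes tested. The share of members that fell is thus to be read against a sort in which most genes changed. In a bulk sample, fewer cells of a type and less RNA per cell cannot be told apart.

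The azurophil pair fell to levels near 0. Mpo, which makes hypochlorous acid from peroxide, was at 0.0430 and 0.171 FPKM in the 2 PH blood libraries, against 21.1 and 32.5 FPKM in normal blood. Its change was -4.62 on the log2 scale (SE 0.27, limma adjusted p 0.000832). Elane, a serine protease, was at 0.0425 and 0.311 FPKM after PH, a change of -2.92 (SE 0.24, limma adjusted p 0.00123). All PH values of the pair were under 1 FPKM and far from the normal ones.

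The 3 specific granule genes fell by similar amounts. Ngp was at 1.68 and 0.642 FPKM after PH, and its PH mean was 0.473% of its normal mean (change -6.86, SE 0.30, limma adjusted p 0.000766). Camp, precursor of an antimicrobial peptide, was at 0.358 FPKM in PH library 1 and listed at 0 in PH library 2, a change of -6.03 (SE 0.22, limma adjusted p 0.000766). Ltf, an iron-binding protein, was at 0.556 and 0.0525 FPKM after PH (change -5.77, SE 0.27, limma adjusted p 0.000766). For all 3 the PH libraries were more than an order of magnitude below the normal ones.

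The calgranulins remained among the abundant transcripts. S100a8 was at 909 and 365 FPKM after PH, against 1909 and 1568 FPKM before, with no overlap of the groups (change -1.59, SE 0.47, limma adjusted p 0.0371). S100a9 was at 1238 and 477 FPKM after PH, so PH library 1 lay between the 2 normal libraries (1182 and 1355 FPKM). The change of S100a9 was -0.72 (SE 0.49) and did not pass (limma adjusted p 0.248). It depended on single libraries, and ranged from -1.41 to -0.03 when 1 blood library at a time was left out. PH library 2 was the lower for both genes.

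Of the genes of mature neutrophils, Retnlg and Csf3r also kept a measurable level, whereas Ly6g was at about the PH level of Ngp (1.68 and 0.642 FPKM). Retnlg was at 177 and 111 FPKM after PH, a change of -1.79 (SE 0.29, limma adjusted p 0.00594). Csf3r was at 36.6 and 33.2 FPKM, a change of -0.94 (SE 0.14, limma adjusted p 0.00483), and its PH mean was 51.3% of the normal mean. Ly6g was at 2.19 and 0.536 FPKM, a change of -1.67 (SE 0.39, limma adjusted p 0.0177). None of these 3 overlapped between the treatments. Without normal blood library 1, and likewise without library 2, S100a8, Retnlg, Csf3r and Ly6g did not pass (limma adjusted p 0.0674 to 0.229), whereas the 5 granule genes passed without any 1 of the 4 blood libraries (limma adjusted p up to 0.0489). With no filter on low values 0 of the 10 passed in limma, with 7 at an unadjusted p under 0.05, and 134 of all 24478 genes passed. S100a8 did not pass either in the fit of all 20 groups (limma adjusted p 0.262) or among genes under 10 FPKM in hepatocytes (0.0530).

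**Figure D2:**
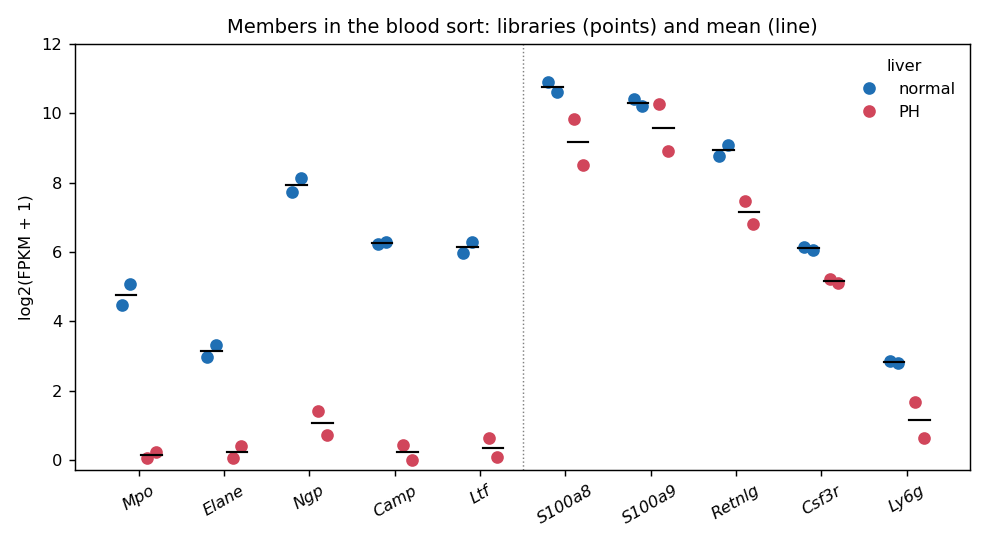
Level of each member in the 4 blood libraries, as log2(FPKM + 1), with points for libraries and a line for the mean of 2. Left of the dotted line, the azurophil and specific granule genes drop to between 0 and 1.42 after PH; right of it, S100a9 overlaps between treatments and the other 4 drop less.

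Ratios within a library do not depend on its scaling. Ngp amounted to 11.2% and 17.7% of S100a8 in normal blood and to 0.185% and 0.176% after PH. Mpo amounted to 1.10% and 2.07% of S100a8 before and to 0.00473% and 0.0469% after, and Elane to 0.356% and 0.573% before and 0.00467% and 0.0852% after. For each of the 5 granule genes both PH ratios lay below both normal ones. The share of all genes tested whose ratio to S100a8 did the same was not computed, so this is a description only.

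The genes of mature neutrophils differed among themselves relative to S100a8. Retnlg was at 22.8% and 34.8% of S100a8 in normal blood and at 19.5% and 30.5% after PH, and these ranges overlapped. Ly6g was at 0.323% and 0.378% before and 0.241% and 0.147% after, so its PH ratios lay below the normal ones too. Csf3r was at 3.67% and 4.21% before and 4.03% and 9.10% after, with overlap. S100a9 was at 71.0% and 75.4% of S100a8 before and at 136% and 131% after. The 5 granule genes made up 9.07% and 12.3% of the summed FPKM of the 10 members in normal blood, and 0.113% and 0.119% after PH. With 2 libraries against 2, an exact two-sided permutation test of a ratio cannot go below a p of 0.333, so none was run.

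**Figure D3:**
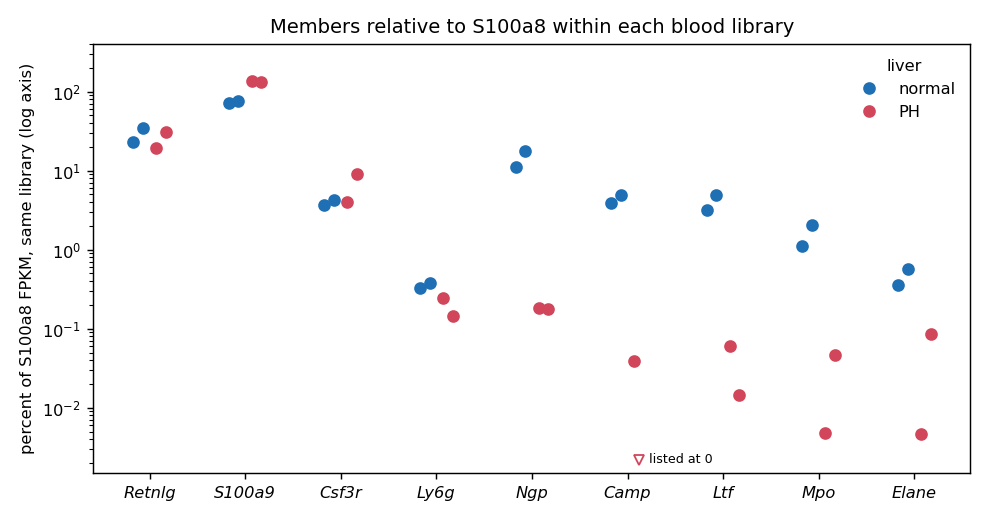
Each member as a percentage of the S100a8 FPKM of the same blood library, on a log axis, with 1 point per library and an open triangle where Camp is listed at 0. Retnlg stays in the same range in both treatments, while Ngp goes from 11.2% or more to 0.185% or less.

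The blood sort changed in its other cell types as well, and these marker values stand beside every result above. All 8 Kupffer markers rose, and their summed level went from 581 to 916 FPKM in normal blood to 11390 to 19940 FPKM after PH. All 5 LSEC markers rose, from a sum of 672 to 774 FPKM to 2255 to 5160 FPKM, and all 5 EC markers rose, from 252 to 268 FPKM to 781 to 1433 FPKM. All 6 T cell markers fell (a sum of 1495 to 1720 FPKM before, 34.6 to 65.9 FPKM after), as did all 5 B cell markers (545 to 786 before, 17.1 to 46.1 after) and all 5 NK cell markers (2686 to 2963 before, 32.3 to 69.8 after). Of 4 hepatocyte markers, Alb, Apoa1 and Ttr were listed at 0 in all 4 blood libraries. Cps1 was at 14.9 FPKM in PH library 1 and at 0 in the other 3. All 4 markers were also listed at 0 in every KC library. Lcn2, Wfdc21 and Cebpa, given below, had zeros in blood and were high in hepatocytes, whereas G0s2 was high there without zeros in blood. Whether such zeros are measured values was not tested, so they are no measure of hepatocyte RNA. Ptprc, a marker of all leukocytes, fell from 579 and 648 FPKM to 55.9 and 116 FPKM (change -2.91, limma adjusted p 0.00326). In PH KC it was at 90.9 to 130 FPKM. The part of these shifts in the members' changes was not tested.

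Neutrophil markers outside the 10 members moved unevenly. Of 7, Fpr1 rose, Mmp9 and Cd177 fell, and Cxcr2, Mmp8, Trem1 and Il1r2 did not pass. The summed level of the 7 was 283 to 310 FPKM in normal blood and 190 to 222 FPKM after PH, of which Fpr1 made up 81.6 and 106 FPKM. Among 6 monocyte markers, Csf1r and Cd14 rose, Ly6c2, Ccr2 and Cx3cr1 fell, and F13a1 did not pass. The proliferation markers Mki67, Top2a and Ccnb1 all fell, from a sum of 50.2 to 53.5 FPKM to 2.20 to 10.2 FPKM. Markers of mast cells and basophils were at 18.0 to 23.3 FPKM in sum before PH and at 0.0437 to 0.225 FPKM after, with Mcpt4, Mcpt8 and Fcer1a listed at 0.

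**Figure D4:**
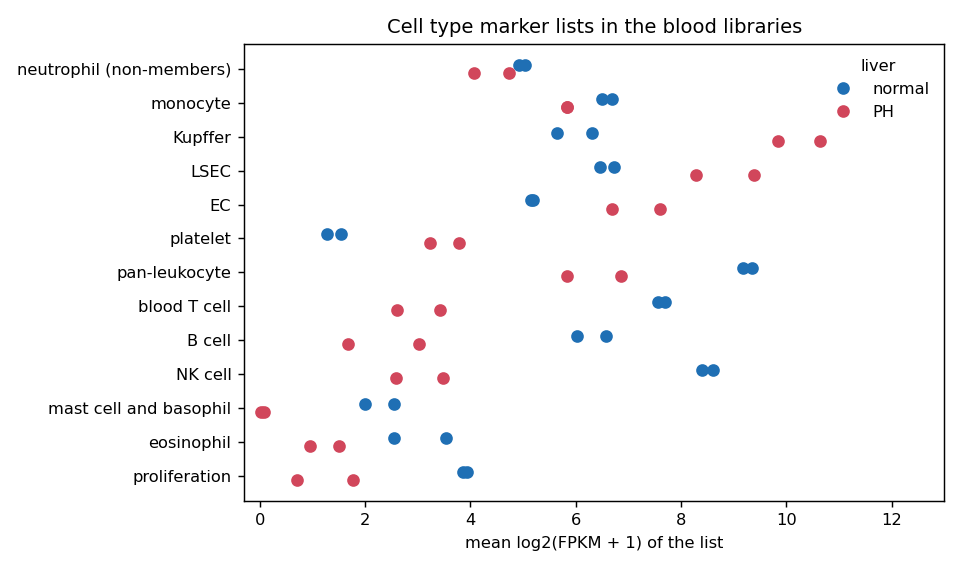
Mean log2(FPKM + 1) of each cell type marker list in the 4 blood libraries, 1 point per library. The Kupffer, LSEC, EC and platelet lists are higher after PH, the lymphoid, mast cell, eosinophil and proliferation lists are lower, and the neutrophil list without the 10 members is at 4.93 and 5.04 before and 4.74 and 4.06 after.

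Other neutrophil genes were examined in 6 classes of function, and of 47 tested in blood 11 rose and 17 fell, with a median change of -0.28. Over all genes tested 39.7% fell and the median was -0.31, so this list as a whole moved much as the background did. Without the 7 of them at 10 FPKM or more in hepatocytes, 8 rose and 14 fell among 40. Among azurophil granule genes, Ctsg (cathepsin G) went from 4.58 and 3.41 FPKM to 0.153 and 0.150 FPKM, a change of -2.11 (limma adjusted p 0.00159). Prtn3 (proteinase 3) changed by -1.16 and also fell. Cd63, a membrane protein of many secretory granules, rose by 0.88.

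Of 10 specific and gelatinase granule genes 6 fell and 0 rose. The gelatinase Mmp9 went from 131 and 142 FPKM to 38.1 and 31.6 FPKM, a change of -1.94 (limma adjusted p 0.00128). Cd177 changed by -2.52. Lcn2 changed by -6.01 and was listed at 0 in both PH libraries, but it was at 5088 FPKM in PH hepatocytes, and whether that bears on the zeros was not tested. The integrin chain Itgb2, shared by most leukocytes, went from 585 and 594 FPKM to 251 and 349 FPKM and fell. Cybb (a subunit of the phagocyte oxidase) and Chil3, both also expressed by macrophages, had changes of -0.37 and 0.81 that did not pass.

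Among 10 genes of the cytosol or of mature neutrophils, 5 fell and 1 rose. Pglyrp1, which binds bacterial peptidoglycan, changed by -2.14 (97.7 and 96.3 FPKM before, 24.4 and 18.6 FPKM after). Wfdc21 changed by -4.46, S100a11 by -1.95 and Anxa1 by -1.65. Wfdc21 was at 2444 FPKM in PH hepatocytes and listed at 0 in PH blood, and whether the former bears on the zeros was not tested. G0s2 was the gene that rose (0.76), and it was at 164 FPKM in normal hepatocytes. Lyz2, shared with macrophages, was at 2674 and 2321 FPKM before and 2628 and 2912 FPKM after, and Il1b at 166 and 151 FPKM before and 215 and 118 FPKM after. Hdc was at 157 FPKM in PH library 1 and at 33.5 to 40.7 FPKM in the other 3 blood libraries. Lyz2, Il1b and Hdc did not pass.

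Of 14 receptor and adhesion genes 5 rose and 1 fell. The lectin receptor Clec4d (2.61) and the formyl peptide receptors Fpr2 (2.49) and Fpr1 (1.86) had the largest rises. Fpr1 went from 23.2 and 27.0 FPKM to 81.6 and 106 FPKM. The Kupffer sort of normal liver held Fpr1 at 227 and 204 FPKM and Tlr4 at 34.2 and 35.4 FPKM, more than blood, and whether the rise of Kupffer markers in PH blood bears on these genes was not tested. C5ar1 went from 32.9 and 30.8 FPKM to 90.9 and 92.2 FPKM, and Tlr4 rose by 1.52. The chemokine receptor Cxcr2, which draws neutrophils out of the marrow, was at 31.2 and 25.3 FPKM before and 21.9 and 14.7 FPKM after, and Itgam at 73.5 and 76.4 FPKM before and 75.2 and 91.0 FPKM after, and neither passed.

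Of 5 myeloid transcription factors 2 rose and 2 fell. Spi1 (PU.1) rose by 1.22, from 112 and 98.7 FPKM to 201 and 302 FPKM. Cebpe, the C/EBP factor of specific granules, was at 3.07 and 3.05 FPKM before and 0.721 and 1.83 FPKM after, a change of -0.88 at the edge of the threshold (limma adjusted p 0.05). Runx1 fell by 1.61 on the log2 scale. Cebpa was listed at 0 in normal blood and was at 50.2 and 75.3 FPKM after PH, and it was at 88.2 and 111 FPKM in normal KC and at 223 FPKM in normal hepatocytes. The part of the rise of Kupffer markers in these values was not tested. Whether the hepatocyte level bears on the zeros of Cebpa was not tested either.

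Ligands that act on neutrophils were tested for 5 genes, of which 2 rose. The neutrophil attractant Cxcl2 went from 1.97 and 3.19 FPKM to 89.0 and 77.1 FPKM, a change of 4.57 (limma adjusted p 0.000766), and normal KC held 161 and 132 FPKM. Cxcl3 rose by 3.70. Csf2 (GM-CSF), a product of activated lymphocytes among other cells, fell by 2.18 on the log2 scale. Csf3, the ligand of Csf3r, was listed at 0 in 3 of the 4 blood libraries and was at 0.306 FPKM in PH library 1.

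The Kupffer sort, the other myeloid population, carried the calgranulins and Csf3r, with low levels of the 5 granule genes. In normal KC library 1 Ngp was at 1.38 FPKM, Camp at 1.63 and Ltf at 0.840, and Ngp was 22.4% and Camp 26.4% of S100a8, above the ratios in normal blood. Library 2 had Ngp and Camp at 0 and Ltf at 0.0827 FPKM, and Mpo and Elane were at 0 in both. Granule genes that macrophages share were abundant in KC, with Cybb at 332 to 377 FPKM and Itgb2 at 194 to 460 FPKM over the 5 libraries. All 10 members were higher in normal blood than in normal KC in limma, where 26.3% of all genes tested were higher. Mpo, Elane and Ly6g reached 1 FPKM only in blood libraries, so they entered the fit of all groups through blood alone. The difference was 7.19 (SE 1.07) for S100a8, 7.31 (SE 0.62) for Ngp and 4.76 (SE 0.12) for Mpo on the log2 scale. It was smallest for Csf3r, at 1.26 (SE 0.34, limma adjusted p 0.00204), which did not pass without normal KC library 2 (limma adjusted p 0.0664) or with a pseudocount of 0.1 (0.359). Normal KC had 34.3 and 22.4 FPKM of Csf3r, above all libraries of the 8 populations other than blood.

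After PH 5 members were still higher in blood than in KC, where 11.9% of all genes tested were higher. These were S100a8 (4.43, SE 0.98), S100a9 (4.71, SE 0.99), Retnlg (5.01, SE 0.58), Csf3r (1.26, SE 0.31) and Ly6g (1.06, SE 0.14). The 2 sorts shared markers: the summed Kupffer markers were at 11390 to 19940 FPKM in PH blood, against 15910 to 17550 FPKM in normal KC and 32570 to 33740 FPKM in PH KC. The part of this sharing in the comparison was not tested. The 5 granule genes did not pass, with differences between 0.09 and 1.01. Without PH blood library 1, S100a8 and Csf3r did not pass (limma adjusted p 0.0619 and 0.0607) and Elane did (difference 0.38, limma adjusted p 0.0180). With a pseudocount of 0.1, S100a8, S100a9 and Csf3r did not pass (limma adjusted p 0.0871 to 0.506) and Elane did (0.0137), which left 3 members.

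Within KC only 4 members had enough signal to be tested, and Csf3r was the member that fell, where 36.8% of all genes tested changed and 20.1% fell. It went from 34.3 and 22.4 FPKM to 12.5, 13.5 and 16.2 FPKM (change -0.94, SE 0.22, limma adjusted p 0.0251). That call was lost without normal library 1 (limma adjusted p 0.134), PH library 1 (0.0786) or PH library 2 (0.0650). Other markers of the sort moved as well: the 5 LSEC markers summed to 3014 to 4187 FPKM in normal KC and 260.8 to 460 FPKM after PH, the 5 EC markers to 1037 to 1292 and 279.8 to 499.5 FPKM, and the Kupffer receptor Marco went from 338 FPKM in both normal libraries to 6794 to 7840 FPKM. Their part in the change of Csf3r was not tested. S100a8 was at 6.17 and 18.7 FPKM in normal KC and at 16.5, 13.9 and 72.3 FPKM after PH, and S100a9 at 10.6 and 31.4 FPKM before and 16.0, 17.7 and 79.2 FPKM after. Retnlg was at 1.58 and 1.16 FPKM before and 1.72, 1.82 and 9.97 FPKM after. PH library 3 was the highest for these 3 genes, and none of them passed (limma adjusted p 0.304 to 0.591). That library stood apart in other markers: the mean log2(FPKM + 1) of the proliferation markers was 0.85, against 4.38 and 4.39 in PH libraries 1 and 2, and that of the non-member neutrophil markers 2.80, against 1.61 and 1.62. Without it 6890 genes were called in KC in place of 4350, the change of S100a9 was -0.12 and Csf3r still passed.

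The response to PH was then compared between blood and KC in 1 fit of all 20 groups. A difference of response can be read only for the 4 members with enough signal in KC, since the other 6 were at 1.63 FPKM or less in all KC libraries and their difference largely repeats the change in blood. Retnlg was the member of these 4 whose response was lower in blood (-2.68, SE 0.86, limma adjusted p 0.0124), where 19.4% of all genes tested were lower and 35.7% differed in either direction. For S100a8 (-2.75, SE 1.45) and S100a9 (-1.32, SE 1.47) the responses were not distinguished (limma adjusted p 0.144 and 0.560). For Csf3r the difference was -0.01 (SE 0.45, limma adjusted p 1). The difference for Retnlg did not pass without PH blood library 2 (limma adjusted p 0.0629) or PH KC library 3 (0.0525), or with a pseudocount of 0.1 (0.303).

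**Figure D5:**
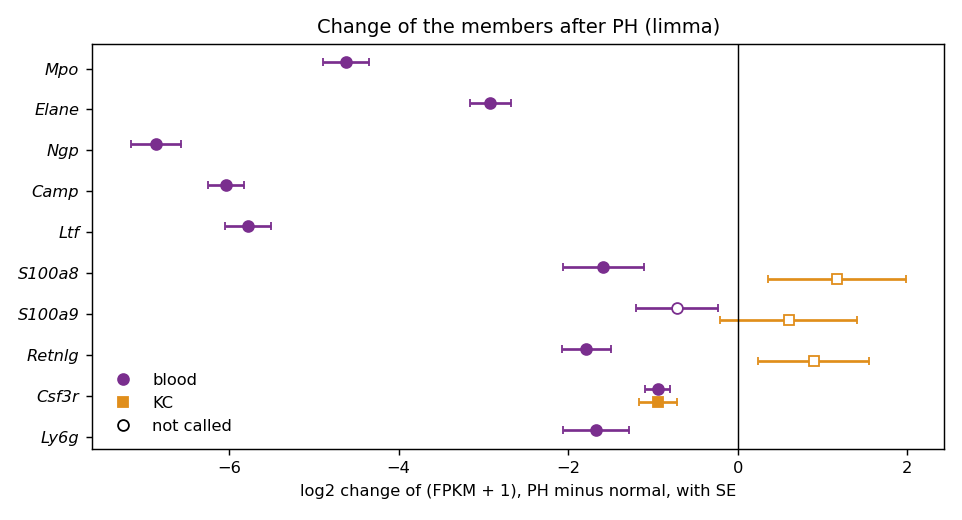
Log2 change after PH with its standard error (limma) for each member in blood (circles) and in KC (squares, 4 members tested), where open symbols did not pass. The 5 granule genes lie between -6.86 and -2.92 in blood, and the other members lie between -1.79 and -0.72.

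In the other 8 populations the members were low, and 13 of 80 pairs of member and population had enough signal to be tested. Of these 0 passed in limma, with 3 at an unadjusted p under 0.05, which is to be read against the share of all genes tested that passed in either direction. That share was 0.0681% in cBEC, 1.81% in BEC, 0.0249% in EC, 8.46% in LSEC, 0.00747% in Thy1 and 0.00853% in HSC. In HC (6.19%) and NPD (15.2%) no member had enough signal to be tested, and in LSEC only 1 had. At such shares 0 calls among 13 pairs is no result about the members. In BEC, S100a9 was at 0.98 to 5.66 FPKM in the 4 normal libraries and listed at 0 in both PH libraries, a change of -2.15 (SE 0.46, limma adjusted p 0.0610), which passed with a pseudocount of 0.1 (0.00943), without normal BEC library 1 (0.0105) and among genes under 10 FPKM in hepatocytes (0.0418). Markers of other cells were lower in the same PH libraries: the mean log2(FPKM + 1) of the Kupffer markers was 3.04 to 4.73 in normal BEC and 0.11 and 0.44 after PH, that of the LSEC markers 3.60 to 5.52 and 0.14 and 0.71, and that of Ptprc, a marker of all leukocytes, 1.02 to 2.45 and 0.14 and 0. Their part in the calgranulin values was not tested. S100a8 in BEC was at 0.45 to 3.69 FPKM in normal liver and likewise at 0 after PH (change -1.57, limma adjusted p 0.130). Both genes thus entered the test in BEC through the normal libraries alone, and their changes could only be falls. In HSC, S100a9 was at 5.18 and 16.0 FPKM in normal liver, at 5.29 FPKM in PH library 1 and at 0 in the other two PH libraries (change -2.47, limma adjusted p 0.557).

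In normal liver S100a8 and S100a9 were the members most often at 1 FPKM or more outside blood. S100a9 was at 1 FPKM or more in 17 of the 25 other normal libraries and in 7 of the 26 other PH libraries, and S100a8 in 15 and 5. Retnlg reached that level in 6 and 5 and Csf3r in 5 and 4, although Csf3r was above 0 in more libraries (19 and 16) than S100a8 (18 and 12). Single libraries stood out: normal LSEC library 2 had 17.8 FPKM of S100a8 and 26.0 of S100a9, and PH EC library 2 had 12.8 and 18.3 FPKM. Ptprc was highest in each of them within its group. Its log2(FPKM + 1) was 3.47 in that LSEC library, against 1.82 and 0 in the others. In that EC library it was 1.70, against 0.18 and 0.35. The mean log2(FPKM + 1) of the T cell and B cell markers was 1.89 and 2.40 in that LSEC library. In that EC library it was 0.28 for both lists, and PH EC library 3 was no lower, at 0.28 and 0.38. Their part in the calgranulin values was not tested. Retnlg was at 2.16 and 3.38 FPKM in these 2 libraries and at 4.08 FPKM in normal NPD library 1, where S100a8 was at 8.79 FPKM. In the order of mean S100a8 levels, KC came after blood in both treatments. KC overlapped LSEC, the next population, in normal liver, but after PH all 3 KC libraries were above those of EC, the next.

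Granule genes stood out in a few libraries outside blood. Ltf, which glandular epithelia also secrete, was at 27.4 and 15.2 FPKM in libraries 1 and 2 of normal cBEC and listed at 0 in libraries 3 and 4. Ngp (0.4955 and 0.8658 FPKM) and Camp (0.2815 and 0.5847 FPKM) were also above 0 in libraries 1 and 2 and listed at 0 in libraries 3 and 4. Both calgranulins were between 1.796 and 2.348 FPKM in libraries 1 and 2. In library 4 S100a8 was at 2.54 FPKM and S100a9 at 1.99 FPKM. The source of Ltf in these libraries was not tested. Ngp was at 14.8 FPKM in PH HSC library 2, more than in PH blood, and at 2.70 FPKM in normal LSEC library 3, and S100a8, S100a9, Retnlg and Csf3r were listed at 0 in both of these libraries. Mpo stayed at or under 0.0553 FPKM in all normal libraries other than blood. Ly6g stayed at or under 0.0788 FPKM there and reached 0.372 FPKM in PH EC library 3.

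Over the 20 group means of log2(FPKM + 1), the members formed a graded set. Pearson's r was 0.995 between Mpo and Elane, 0.992 between Camp and Mpo and 0.977 between S100a8 and S100a9, and 0.698 between S100a8 and Mpo. Ly6g stood between them, with 0.941 to Ngp and 0.872 to S100a8. The non-members most like S100a8 were Ms4a4a (0.979), Slfn4 (0.970), F13a1 (0.970), Sirpb1a (0.964) and Mir223 (0.964). Those most like Ngp were Tnfsf8 (0.986), Klrb1a (0.985), Klra1 (0.985), Cr2 (0.985) and Baiap3 (0.984), all with a level in normal blood and under 1.1 FPKM in PH blood. These values are descriptions over 20 groups that share the high blood level, and each such value was computed with the 2 blood groups included.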

How the data were processed

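RNA from 55 liver libraries in 20 groups was analysed, grouped by sample title; PH cBEC library 1 carries a treatment tag of normal and was kept as titled. The authors deposited FPKM values, with 1 column per library and 1 row per RefSeq transcript, going by the name of the table. CASAVA 1.8.2, Bowtie 1.0.0 and mm9 are listed in the submitters' processing notes, and the counting tool is not given in the sources used here. All columns carried a sample title. The start column was counted from 0: counted from 1, 9426 of the 17613 genes compared would be 1 base longer than in RefSeq, so 1 was added.

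Values of log2(FPKM + 1) entered limma (3.58.1, R 4.3.3) with trended, robust variances, and two-sided p-values were Benjamini-Hochberg adjusted over all genes tested. A gene was tested if the number of fitted libraries at 1 FPKM or more reached the size of the smaller group. Within a population, a gene under 1 FPKM throughout 1 group thus entered through the other group alone, which largely fixed its direction. PH was compared with normal within a population, and blood with KC in 1 fit of all groups. A fold change on this scale understates that of low genes. Depth is unknown, so no counting interval is given. The members and lists were chosen with earlier results of these data known. All members are named; of the other neutrophil genes, the 3 largest changes in each direction per class and genes at 100 FPKM or more in a blood library; and the 5 genes most like S100a8 and Ngp. Csf3, Cxcr2, Itgam, C5ar1 and Tlr4 fall outside that rule and were chosen after their values were seen. A gene of the receptor class is counted but not reported here by name. Alternatives were a pseudocount of 0.1, no filter, quantile and upper-quartile scaling, all groups or only blood and KC in the fit, a replicate block, the mean over a symbol's rows, genes under 10 FPKM in hepatocytes, and leaving out each library. On simulated data with a change of 2 on the log2 scale, 118 of 200 genes were recovered in the blood design (12819 genes), 145 in KC (11835 genes) and 131 in the comparison of responses (16527 genes). Plots used matplotlib 3.10.9 (Python 3.11.15).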

Additional observations from a re-analysis of the deposited data

Results flagged for a closer look

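Among the 4 members with enough signal in both sorts, the response of Retnlg to PH was lower in blood than in KC by the fit of all groups (-2.68 on the log2 scale). In that fit 35.7% of all genes tested differed in either direction. The difference did not pass without PH KC library 3 or with a pseudocount of 0.1.

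Of 35 sets of member values in groups of 4 or 5 libraries, 15 had a library far from the others. A rate of 1 in 20 would give about 1.8, but that rate assumes normally spread values. Where all other libraries of a set were at 0, any value above 0 was flagged, so the 15 cannot be read against 1.8. All 15 flagged values were at low levels, mostly where the other libraries were at or near 0. In hepatocytes after PH these were Ngp at 0.06 FPKM in library 4, Camp at 0.08 in library 1, Ltf at 0.06 and Mpo at 0.03 in library 4, and Csf3r at 0.07 in library 2. In normal hepatocytes they were S100a8 at 1.32 FPKM, Retnlg at 1.09 and Csf3r at 0.11, all in library 4. In PH LSEC they were Ngp at 0.160 FPKM in library 3, and S100a9 at 1.82 and Retnlg at 0.591 in library 4. In the normal biliary sorts they were Mpo at 0.0553 FPKM in BEC library 4, Ly6g at 0.0688 in BEC library 2, Ly6g at 0.0788 in cBEC library 1, and S100a9, listed at 0 in cBEC library 3 and near 2 FPKM in the other cBEC libraries.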

How the results depend on the processing

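With no filter on low values (24478 genes tested), 134 genes were called in blood, against 8199 of 12819 with the filter, and limma called 0 members there (7 at an unadjusted p under 0.05), 0 other neutrophil genes in blood (20) and 0 members in KC (1). The single fit of all groups called 8 members in blood and 2 in KC. In that fit 6642 of 16527 genes were called in blood and 2970 of 16527 in KC. Genes under 10 FPKM in hepatocytes gave 8 members in blood, where 5656 of 8492 genes were called. S100a8 was the member lost in blood both times. Among pairs of member and population in the other 8 populations, 2 passed with a pseudocount of 0.1, 2 with a replicate block and 1 among genes under 10 FPKM in hepatocytes. With a pseudocount of 0.1, 3 members differed between PH blood and PH KC. For these pairs and this comparison the share of all genes called under the alternatives was not computed. No change or difference that passed changed sign under any alternative run. Values that did not pass did: with a pseudocount of 0.1, Retnlg in EC (0.020), S100a8 in HSC (-0.057) and the difference of response of Csf3r (0.018), the last also with quantile scaling (0.046) and the mean over rows (0.027), and with quantile scaling Camp between PH blood and PH KC (-0.034). Quantile scaling moved the median change of all genes in blood from -0.31 to -0.15 and left 9 members called, where 7892 of 12819 genes were called.

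Leaving out 1 library at a time gave 5 to 10 members called in blood (5 without normal blood library 1 or 2, where 1262 and 1829 of all genes passed) and 9 to 35 other neutrophil genes. It gave 0 to 3 members in KC, where 3 passed without normal library 2 and 0 without normal library 1, PH library 1 or PH library 2. It gave 0 to 4 pairs in the other populations (4 without normal NPD library 2, and 2 without normal BEC library 1 or normal LSEC library 3). The median change of the members in blood was -2.52 to -2.23, and 6 to 7 responses differed, 9 to 10 members differed between normal blood and KC and 4 to 5 between PH blood and KC. Among values that did not pass and changed sign, S100a9 ranged from -0.14 to 1.34 in KC, -1.83 to 0.31 in EC and -1.46 to 0.36 in Thy1, S100a8 from -1.37 to 0.78 in EC and -0.46 to 1 in HSC, Retnlg from -1.22 to 0.91 in EC, the difference of response of Csf3r from -0.30 to 0.29, and Camp between PH blood and PH KC from -0.14 to 0.31. A group left with 1 library is assumed to vary like the others. The share of all genes called in these fits was not computed for the other populations or for blood against KC.

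Replicate numbers are not said to pair libraries, and same-numbered blood libraries did not deviate together (r = -0.05). With the replicate block, limma called 9 members in blood, where 7667 of 12819 genes were called. It called 1 member in KC, where the count of all genes went from 4350 to 6549. It also called 7 differences of response, 6 of them of members near 0 in KC. With the block S100a9 in KC was at -0.12, and in EC S100a8, S100a9 and Retnlg were at 0.33, 0.31 and 0.30. The depth is unknown, so changes at levels under about 1 FPKM could not be resolved.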

Other observations

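The level of S100a9 relative to S100a8 within a library moved in opposite ways in the 2 myeloid sorts, by values without a test. In blood it was 71.0% and 75.4% in normal liver and 136% and 131% after PH. In KC it was 171% and 168% in normal liver and 96.9%, 128% and 110% after PH.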
